A study of Mus musculus with 6 samples.

Results

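The metabolic nuclear receptors examined here were 10 genes matched by symbol in the count table: Nr1h4 (FXR), Nr0b2 (SHP), Nr1i2 (PXR), Nr1i3 (CAR), Nr1h3 (LXR-alpha), Ppara, Pparg, Ppard, Rxra and Nr5a2 (LRH-1). All 10 were found among 52459 genes, and all 10 passed the filter on low counts that left 17032 genes for testing. RNA-Seq was done on whole livers of 6 male C57BL6J mice, the first-generation offspring of Alb-Cre and Cas9 parents, in which the albumin promoter drives Cre and so restricts Cas9 to hepatocytes. At 4 to 5 weeks of age, an AAV8 vector with a U6 promoter brought in a control guide RNA (sgCtrl, mice 5.1, 7.1 and 7.2) or a guide RNA against the peroxiredoxin gene Prdx2 (sgPrdx2, mice 1.1, 1.3 and 3.2) by the intravenous route. Both groups were given the liver carcinogen diethylnitrosamine (DEN, 100 mg/kg) 3 weeks after the vector and, 1 week later, the choline-deficient CDA-HFD for 6 months, and were 8 months old at the end. Hepatocytes that the vector missed and all other liver cells keep Prdx2 in this model, and livers without DEN and diet were not analysed here.

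Nuclear receptors are transcription factors that bind small lipophilic molecules and, with few exceptions, DNA. FXR senses bile acids, LXR-alpha senses oxysterols, PXR and CAR respond to foreign compounds, and the PPAR receptors respond to fatty acids; each of these pairs with RXR-alpha to bind DNA. SHP has no DNA-binding domain, is induced by FXR and represses other receptors, among them LRH-1, which binds DNA as a monomer and drives bile acid synthesis genes. Hepatocytes are known for high levels of most of these receptors, while PPAR-gamma is best known from fat cells.

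The libraries held between 37462102 and 56865293 counts. The detection limit was set at 3 counts in a library, which corresponded to 0.0555 to 0.0921 normalized CPM (counts scaled to the effective library size), a limit that covers counting error only. The targeted gene, Prdx2, had 109, 117 and 132 CPM in the sgCtrl livers and 99, 112 and 149 CPM in the sgPrdx2 livers (log2 fold change 0.01 ± 0.180 SE), so that the labels could not be checked by its RNA. Over all genes, edgeR's quasi-likelihood test called 567 of 17032 (3.33%) at a Benjamini-Hochberg adjusted p under 0.05, 305 higher and 262 lower in sgPrdx2 livers (53.8% higher). The split depended on the scaling of the libraries: 206 were higher and 3041 lower with total counts alone (6.34% higher), and 70 higher and 919 lower with scaling to 6 housekeeping genes (7.08% higher). Over all genes, the median log2 fold change was -0.02 under the TMM scaling used here, -0.39 with total counts alone and -0.38 with housekeeping scaling, and the housekeeping genes themselves had a median of 0.43 under TMM. Summed hepatocyte markers stood at 79414 to 88633 CPM in sgCtrl and 136826 to 183510 CPM in sgPrdx2 livers (9 of 9 above 0, with Alb, Apoa1 and Ttr called higher), and summed leukocyte markers at 324 to 372 and 169 to 188 CPM (6 of 6 below 0, with Itgb2, Cd53 and Cd8a called lower). Alb weighed most in the hepatocyte sum, with means of 60214 CPM in sgCtrl and 117782 CPM in sgPrdx2 livers. Taken singly, 7 of 9 hepatocyte markers were higher in every sgPrdx2 liver, against 16.7% of all genes, and Apob and Tat overlapped. In bulk liver, fewer cells of a type and less RNA per cell cannot be told apart. The p-values measure only the spread between these livers.

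No member passed the edgeR test at an adjusted p under 0.05 (0 of 10, against 3.33% of all genes). At an unadjusted p under 0.05, edgeR counted 5 of 10 members (Nr1h4, Ppard, Rxra, Nr1h3 and Nr0b2), against 24.9% of all genes, and DESeq2 called 4 of 10 at its adjusted p (Nr1h4, Nr0b2, Rxra and Ppard), against 12.4% of all genes. Among the members, 3 were higher in every sgPrdx2 liver than in every sgCtrl liver (Nr1h4, Rxra and Nr1h3), against 16.7% of all genes, and 1 was lower in every sgPrdx2 liver (Ppard), against 17.5%. The log2 fold change was above 0 for 8 of 10 members under TMM, but for 5 of 10 with total counts alone or housekeeping scaling. Their median was 0.36 under TMM, beside -0.02 over all genes.

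**Figure D1:**
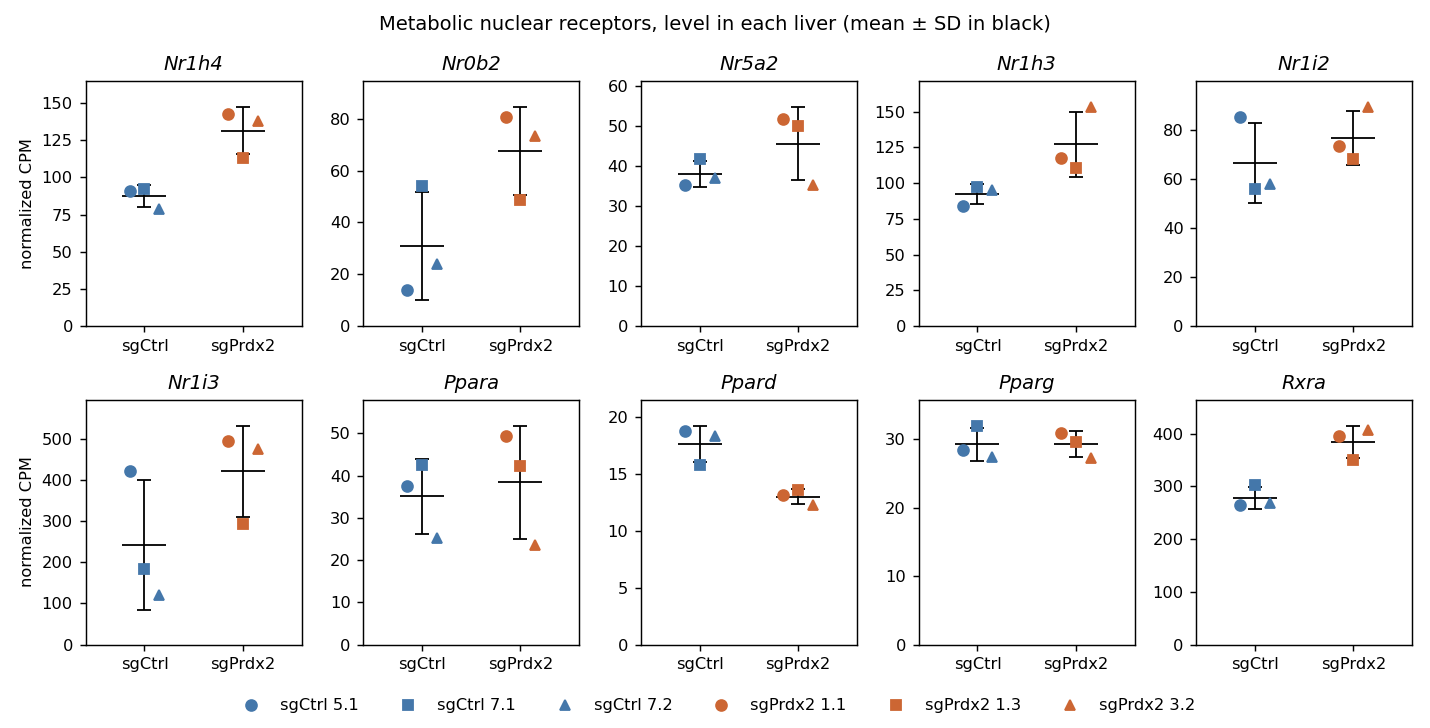
Level of each metabolic nuclear receptor gene in each liver, in normalized CPM on a linear axis from 0. Each symbol is 1 liver, horizontal lines are group means and bars are ± SD (n = 3). Nr1h4, Nr1h3 and Rxra lie higher and Ppard lies lower in every sgPrdx2 liver, while the other 6 genes overlap between the groups.

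The bile acid arm is described first, since its receptor had the smallest p among the members. The 250 bases upstream of the RefSeq start sites of Nr1h4 and Nr0b2 are shown because these genes form the receptor and its induced repressor, and the window of Rxra, the shared partner, for contrast in base composition. Capitals mark the AGGTCA core that nuclear receptors bind, the CACGTG E-box, the TATAAA box and the GGGCGG box, or their reverse complements, each searched on both strands. The sequences are from RefSeq on GRCm38.p6 and read 5′ to 3′ on the strand of the gene, with the start site just after the last base. No GENCODE M21 exon lies in these windows: that of Nr0b2 ends just before the first base of the gene, and those of Nr1h4 and Rxra lie in introns of transcripts that start further upstream.
Nr1h4, chr10:89506659-89506908, minus strand: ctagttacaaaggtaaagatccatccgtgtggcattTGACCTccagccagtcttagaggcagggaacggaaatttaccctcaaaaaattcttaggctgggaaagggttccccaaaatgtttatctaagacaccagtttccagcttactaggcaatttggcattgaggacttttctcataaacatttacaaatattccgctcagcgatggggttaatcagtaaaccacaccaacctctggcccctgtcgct
Nr0b2, chr4:133553126-133553375, plus strand: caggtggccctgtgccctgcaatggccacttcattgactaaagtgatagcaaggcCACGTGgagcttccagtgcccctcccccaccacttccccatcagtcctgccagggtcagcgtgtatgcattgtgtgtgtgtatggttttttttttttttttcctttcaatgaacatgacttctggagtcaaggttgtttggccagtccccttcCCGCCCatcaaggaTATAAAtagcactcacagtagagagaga
Rxra, chr2:27676951-27677200, plus strand: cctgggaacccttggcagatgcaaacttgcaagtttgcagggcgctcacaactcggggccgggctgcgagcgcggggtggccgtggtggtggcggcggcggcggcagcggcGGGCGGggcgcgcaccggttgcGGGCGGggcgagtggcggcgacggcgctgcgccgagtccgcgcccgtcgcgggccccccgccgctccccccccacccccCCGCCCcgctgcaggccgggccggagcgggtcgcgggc
The Nr1h4 window held 1 AGGTCA core on the opposite strand, 214 bases before the start, and AGGTCA was found in 14.02% of all 32851 RefSeq promoter windows of this length. The Nr0b2 window held TATAAA 28 bases before the start (12.37% of all windows), CACGTG 195 bases before it (6.02%) and GGGCGG on the opposite strand 42 bases before it (32.74%). The Rxra window held 3 GGGCGG boxes and 40 CpG dinucleotides, against 5 in the Nr1h4 window, 3 in the Nr0b2 window and a median of 6 over all windows. A second RefSeq window of Rxra (chr2:27709042-27709291), not printed, held AGGTCA 87 and 48 bases before its start and 1 CpG. These matches describe letters only, and no binding was measured.

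Nr1h4 (chr10:89454234-89533585, minus strand, GRCm38 here and below) encodes FXR, the bile acid receptor. Its level was 91.1, 92.6 and 79.0 CPM in the sgCtrl livers and 143, 113 and 138 CPM in the sgPrdx2 livers. Every sgPrdx2 liver was above every sgCtrl liver. For Nr1h4 this is a log2 fold change of 0.59 ± 0.145 SE (1.501-fold, 95% interval 0.25 to 0.92), with an edgeR adjusted p of 0.0668 and a DESeq2 adjusted p of 0.00406. It was 0.21 with total counts alone and with housekeeping scaling (edgeR adjusted p = 0.282 and 0.399). The summed hepatocyte markers separated the groups in the same direction, with a median log2 fold change of 0.94 over 9 markers, all 9 above 0, and their part in the values of Nr1h4 and of the other members was not tested.

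Nr0b2 (chr4:133553376-133556536, plus strand) encodes SHP, the repressor that FXR induces. Its level was 14.0, 54.3 and 24.1 CPM in the sgCtrl livers and 80.8, 48.6 and 73.4 CPM in the sgPrdx2 livers. The groups overlapped, because sgCtrl liver 7.1 was above sgPrdx2 liver 1.3. The log2 fold change was the largest of the 10 members, 1.13 ± 0.449 SE (2.19-fold, 95% interval 0.10 to 2.17), with an edgeR adjusted p of 0.172 and a DESeq2 adjusted p of 0.0458. Without sgCtrl liver 7.1 it was 1.82, with an edgeR adjusted p of 0.0414, and without sgCtrl liver 5.1 it was 0.79, with an edgeR adjusted p of 0.323 and below the 1.47 of Nr1i3. Within the sgCtrl group the highest level was 3.87 times the lowest, and within the sgPrdx2 group 1.66 times. The log2 ratio of Nr0b2 to Nr1h4 averaged -1.73 (SD 0.965) over the 3 sgCtrl livers and -0.99 (SD 0.210) over the 3 sgPrdx2 livers, a difference of 0.74 (two-sided exact permutation p = 0.4; the smallest possible is 0.1).

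Nr5a2 (chr1:136842571-136960448, minus strand) encodes LRH-1, the monomeric activator of bile acid synthesis genes. It was measured at 35.4, 41.7 and 37.1 CPM in sgCtrl livers and at 51.8, 49.98 and 35.3 CPM in sgPrdx2 livers. Livers 1.1 and 1.3 were above all sgCtrl livers, and liver 3.2 was below them. Nr5a2 had a log2 fold change of 0.26 ± 0.168 SE (95% interval -0.12 to 0.65, edgeR adjusted p = 0.360), and it was below 0 with total counts alone (-0.091). It was 0.43 without sgPrdx2 liver 3.2 (edgeR adjusted p = 0.067) and 0.16 without sgPrdx2 liver 1.1.

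Of 11 listed FXR and SHP targets, 9 were tested; edgeR called 1 higher and none lower, DESeq2 called 4 higher, and the median log2 fold change was 0.53. All 9 were above 0 under TMM and 6 of 9 with total counts alone or housekeeping scaling. For this and the later lists, the shares of all genes called in either direction were 3.33% by edgeR and 12.4% by DESeq2. At an unadjusted p under 0.05, edgeR counted 24.9% of all genes. Slc27a5, the bile acid CoA ligase, rose from 203, 285 and 186 CPM in sgCtrl to 750, 556 and 590 CPM in sgPrdx2 livers. This gave a log2 fold change of 1.49 ± 0.211 SE (edgeR adjusted p = 0.0342), and its adjusted p was 0.118, 0.143, 0.142 and 0.0672 without sgCtrl liver 5.1, sgCtrl liver 7.2, sgPrdx2 liver 1.1 or sgPrdx2 liver 1.3. Baat, which conjugates bile acids to amino acids, had a log2 fold change of 0.71 (edgeR adjusted p = 0.0575). For Slc10a1, the bile acid importer NTCP, it was 1.46 (edgeR adjusted p = 0.0655). The list does not sort its genes by whether the pathway induces or represses them, so that these rises give no direction of receptor activity. The 2 targets that were not tested, Slc51a and Fgf15, had 7 and 4 counts over all livers.

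The next 2 enzymes of bile acid synthesis that FXR and SHP are known to repress were named after their values were seen. Both stand among the 9 tested targets, so that list also holds genes that the pathway represses. Its median and its count above 0 therefore give no direction of receptor activity. Cyp7a1, the rate-limiting enzyme, stood at 82.1, 30.9 and 54.2 CPM in sgCtrl and 70.5, 60.1 and 88.6 CPM in sgPrdx2 livers (log2 fold change 0.39 ± 0.326 SE, edgeR adjusted p = 0.484). Among the sgCtrl livers its order was the reverse of that of Nr0b2, with liver 5.1 highest for Cyp7a1 and lowest for Nr0b2. Cyp8b1, the sterol hydroxylase of the cholic acid branch, stood at 56.2, 146 and 110 CPM in sgCtrl and 299, 238 and 199 CPM in sgPrdx2 livers (log2 fold change 1.24 ± 0.330 SE, edgeR adjusted p = 0.0771), and its order in the sgCtrl livers was the same as that of Nr0b2. Every sgPrdx2 liver was above every sgCtrl liver for Cyp8b1. In the sgPrdx2 livers neither order recurred: liver 1.3 was lowest for both Cyp7a1 and Nr0b2, and liver 3.2 was lowest for Cyp8b1. With 3 livers a group these orders are descriptions only.

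Among the 8 LRH-1 targets, edgeR called none (5 at an unadjusted p under 0.05) and DESeq2 called 5 higher. All 8 were above 0 under TMM, with a median log2 fold change of 0.73, and 7 of 8 with total counts alone or housekeeping scaling. Apom, an apolipoprotein of HDL, had the smallest p, with 163, 166 and 220 CPM in sgCtrl and 347, 307 and 590 CPM in sgPrdx2 livers (log2 fold change 1.18, edgeR adjusted p = 0.0555). Every sgPrdx2 liver was above the sgCtrl livers. Cyp7a1, Cyp8b1, Abcg5 and Abcg8 stand in this list and also in the FXR or LXR list, so that the lists are not separate evidence.

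Nr1h3 (chr2:91184061-91202834, minus strand) encodes LXR-alpha, the oxysterol receptor. Its level was 84.2, 97.0 and 95.6 CPM in sgCtrl livers and 118, 111 and 153 CPM in sgPrdx2 livers. The groups did not overlap, and liver 3.2 was highest. Nr1h3 had a log2 fold change of 0.46 ± 0.161 SE (1.38-fold, 95% interval 0.09 to 0.83), with an unadjusted p of 0.0208 and an edgeR adjusted p of 0.135. With total counts alone it was 0.080 and with housekeeping scaling 0.072. A stretch of 34 exon bases (1.35%) is shared with the overlapping gene model Gm13783.

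All 14 LXR targets were tested, of which 7 lay above and 7 below 0, with a median log2 fold change of 0.10 under TMM and -0.27 with total counts alone. DESeq2 called 3 higher and 2 lower, and edgeR called 1 lower. Abcg1, a cholesterol exporter prominent in macrophages, fell from 40.6, 31.2 and 41.2 CPM in sgCtrl to 21.5, 23.9 and 19.4 CPM in sgPrdx2 livers. This was a log2 fold change of -0.80 ± 0.150 SE (edgeR adjusted p = 0.0409), and its adjusted p was between 0.0512 and 0.160 without any 1 liver other than sgCtrl 7.1, and 0.0510 after a correction for transcript length. Summed macrophage markers were 3688 to 4172 CPM in sgCtrl and 2604 to 3672 CPM in sgPrdx2 livers, with 10 of 10 below 0 and 1, Mpeg1, called lower, and their part in the value of Abcg1 was not tested. Abcg5 and Abcg8, the paired transporters that move cholesterol into bile, had log2 fold changes of 0.75 and 0.71 (edgeR adjusted p = 0.0612 and 0.0624), and for both every sgPrdx2 liver was above every sgCtrl liver.

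**Figure D2:**
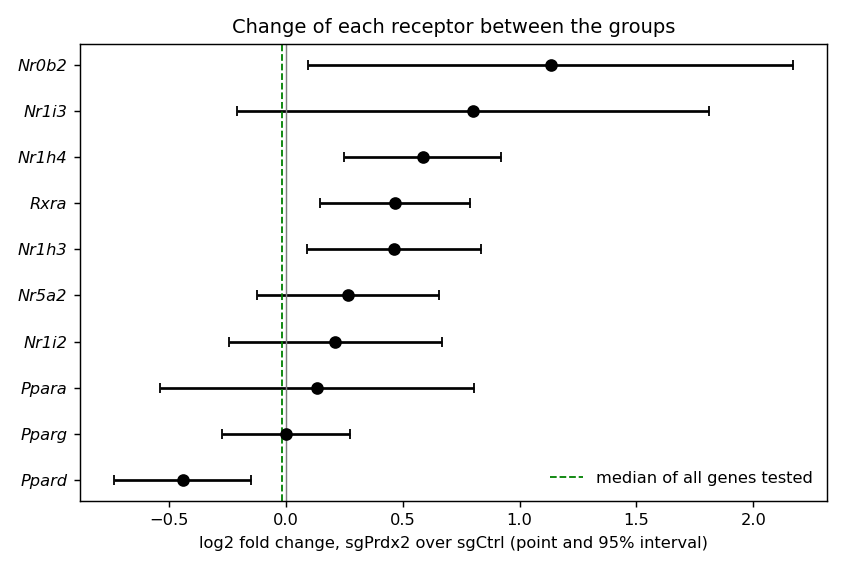
Log2 fold change of each metabolic nuclear receptor, sgPrdx2 minus sgCtrl livers, with 95% intervals from the edgeR quasi-likelihood fit (3 livers a group, not adjusted for the number of genes). The intervals of Nr1h4, Nr0b2, Nr1h3 and Rxra lie above 0, that of Ppard lies below 0, and the other 5 include 0.

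Nr1i2 (chr16:38248323-38294824, minus strand) encodes PXR, a receptor for drugs and other foreign compounds. It was found at 85.2, 56.0 and 57.9 CPM in sgCtrl livers and at 73.4, 68.0 and 89.2 CPM in sgPrdx2 livers. Only sgPrdx2 liver 3.2 was above all sgCtrl livers, and sgCtrl liver 5.1 stood within the sgPrdx2 range. Nr1i2 had a log2 fold change of 0.21 ± 0.198 SE (95% interval -0.24 to 0.67, edgeR adjusted p = 0.532), and -0.18 with total counts alone or housekeeping scaling. It was 0.43 without sgCtrl liver 5.1 and 0.10 without sgCtrl liver 7.1 or sgPrdx2 liver 3.2.

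Nr1i3 (chr1:171213970-171220701, plus strand) encodes CAR, which drives the Cyp2b genes. Levels were 422, 183 and 121 CPM in the sgCtrl livers and 494, 294 and 476 CPM in the sgPrdx2 livers. The spread within sgCtrl was wide, with the highest level 3.49 times the lowest, and liver 5.1 stood among the sgPrdx2 values. Nr1i3 had a log2 fold change of 0.80 ± 0.437 SE (95% interval -0.21 to 1.81, edgeR adjusted p = 0.294), and it was 1.47 without sgCtrl liver 5.1 and 0.48 without sgCtrl liver 7.2. Of its exon bases, 3304 of 4414 (74.85%) overlap Tomm40l, a gene on the opposite strand that encodes a mitochondrial import protein. Whether the counting used strand is not given in the sources used here, so that reads of the overlap cannot be assigned with certainty. Tomm40l itself, named after its values were seen, had 17.9, 23.2 and 28.7 CPM in sgCtrl and 18.5, 17.6 and 27.1 CPM in sgPrdx2 livers (log2 fold change -0.15 ± 0.224 SE, edgeR adjusted p = 0.711).

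Of the 19 PXR and CAR targets, all tested, 16 were above 0 under TMM (11 with total counts alone or housekeeping scaling), with a median log2 fold change of 0.55. DESeq2 called 7 higher, and edgeR called 1 higher. Cyp2c29, a drug-metabolising cytochrome P450, rose from 141, 101 and 75.9 CPM in sgCtrl to 244, 217 and 203 CPM in sgPrdx2 livers (log2 fold change 1.06 ± 0.226 SE, edgeR adjusted p = 0.0491). This call was the nearest to the threshold: the adjusted p was 0.0503 with upper-quartile factors, 0.0715 with total counts alone, 0.128 with housekeeping scaling and 0.0577 to 0.160 without any 1 liver. Cyp2c50, of the same family, had a log2 fold change of 1.63 (edgeR adjusted p = 0.0570), and Slco1a4, an organic anion importer, one of 0.88 (edgeR adjusted p = 0.0678). Cyp2c genes belong to a multigene family, and reads shared between them were not measured here, so that their counts are uncertain.

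Cyp2b10, the best-known CAR target in mouse, was chosen after its values were seen, for its order among the sgCtrl livers. It stood at 0.0685, 0.423 and 8.85 CPM in the sgCtrl livers and at 1.03, 1.72 and 13.8 CPM in the sgPrdx2 livers (log2 fold change 0.79 ± 1.41 SE, edgeR adjusted p = 0.752), beside a log2 fold change of 0.80 for Nr1i3. In sgCtrl the order of the livers was the reverse of that of Nr1i3, with liver 5.1 highest for Nr1i3 and lowest for Cyp2b10, at the detection limit of 3 counts, which is a description of 3 livers only. In sgPrdx2 the order was not the reverse: liver 1.1 was highest for Nr1i3 and lowest for Cyp2b10, but liver 3.2 was above liver 1.3 for both. In both groups 1 liver held most of the Cyp2b10 signal. Cyp2b13 and Cyp2b9, also in the list, had log2 fold changes of 1.52 and 0.56 (edgeR adjusted p = 0.113 and 0.296), with overlap between the groups. DESeq2 called Cyp2b13 (adjusted p = 0.00756) but not Cyp2b9 (adjusted p = 0.214).

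Ppara (chr15:85734983-85802819, plus strand) encodes the receptor that drives fatty acid oxidation in hepatocytes. It was at 37.4, 42.5 and 25.3 CPM in sgCtrl livers and 49.4, 42.2 and 23.5 CPM in sgPrdx2 livers. The groups overlapped, with 1 low liver in each, sgCtrl 7.2 and sgPrdx2 3.2. Ppara had a log2 fold change of 0.13 ± 0.291 SE (95% interval -0.54 to 0.80, edgeR adjusted p = 0.802), and it was -0.22 with total counts alone, -0.057 without sgCtrl liver 7.2 and -0.092 without sgPrdx2 liver 1.1.

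Ppard (chr17:28232700-28301474, plus strand) encodes the PPAR found in most tissues. It was the only member that was lower in every sgPrdx2 liver, with 18.7, 15.8 and 18.4 CPM in sgCtrl and 13.1, 13.6 and 12.3 CPM in sgPrdx2 livers. The highest sgPrdx2 value was below the lowest sgCtrl value. The log2 fold change was -0.44 ± 0.127 SE (0.736-fold, 95% interval -0.74 to -0.15), with an edgeR adjusted p of 0.0912 and a DESeq2 adjusted p of 0.0428. It was -0.81 with total counts alone (edgeR adjusted p = 0.0216) and -0.80 with housekeeping scaling (edgeR adjusted p = 0.0484). Set against the median of all genes, it was -0.43 under TMM, -0.42 with total counts alone and -0.42 with housekeeping scaling. A change of scaling shifts nearly all genes alike, so that subtracting the median takes it out. The near equality of these values was therefore fixed in advance and is no test of the scaling. Summed cholangiocyte markers were also lower in every sgPrdx2 liver (1624 to 1852 and 1216 to 1389 CPM). So were summed stellate cell markers (953 to 1371 and 796 to 831 CPM) and the leukocyte and macrophage sums given above. Taken singly, 2 of 5 cholangiocyte and 3 of 6 stellate cell markers were lower in every sgPrdx2 liver. So were 3 of 10 macrophage and 4 of 6 leukocyte markers, against 17.5% of all genes. The rest of these markers overlapped between the groups. Summed endothelial markers overlapped (184 to 212 and 138 to 209 CPM), and 2 of 5 were lower in every sgPrdx2 liver. Abundant genes weigh most in such sums, as Spp1 does among the cholangiocyte markers (mean 1578 CPM in sgCtrl livers). The part of these cell types in the value of Ppard was not tested.

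Pparg (chr6:115360951-115490399, plus strand) encodes the receptor of fat cells, also found in fatty liver. Its log2 fold change was the smallest in size of the 10, with levels of 28.4, 32 and 27.5 CPM in sgCtrl and 31.0, 29.6 and 27.2 CPM in sgPrdx2 livers. The groups overlapped. The log2 fold change was -0.00 ± 0.118 SE, with a 95% interval of -0.27 to 0.27 under TMM. It was -0.37 with total counts alone and -0.36 with housekeeping scaling, both outside that interval. The adipocyte markers were near 0, with a summed level of at most 0.0457 CPM and Lep at 0 in every liver.

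None of the 25 PPAR-alpha targets passed the edgeR test (8 at an unadjusted p under 0.05), and DESeq2 called 4 higher and 2 lower. Under TMM, 15 were above 0, with a median log2 fold change of 0.12, and 4 were above 0 with total counts alone, with a median of -0.25. Fabp1, the liver fatty acid carrier, had a log2 fold change of 1.17 (edgeR adjusted p = 0.0722). Creb3l3, a transcription factor of lipid metabolism, had 0.75 (edgeR adjusted p = 0.0891), and Acadvl, an enzyme of mitochondrial fatty acid oxidation, had 0.49 (edgeR adjusted p = 0.0938). For each of these 3 genes every sgPrdx2 liver was above every sgCtrl liver. Over the whole list, 7 genes were higher and 3 were lower in every sgPrdx2 liver, against 16.7% and 17.5% of all genes. The 2 largest changes in size were falls, named after their values were seen: Fgf21 had -1.32 (edgeR adjusted p = 0.161) and Acot2 -1.21 (edgeR adjusted p = 0.0990). The groups overlapped for Acot2, and the rise of Fabp1 was next in size. Pdk4, a fall also named after its values were seen, had -0.74 (edgeR adjusted p = 0.144), smaller in size than the rise of Creb3l3.

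Of 11 listed PPAR-gamma targets, 10 were tested, of which 6 were below 0 under TMM and 8 with total counts alone or housekeeping scaling, with a median log2 fold change of -0.43. By edgeR none was called (3 at an unadjusted p under 0.05), and DESeq2 called 3 lower. Cd36, a fatty acid importer that macrophages and endothelium also hold, was at 545, 425 and 460 CPM in sgCtrl and 315, 305 and 252 CPM in sgPrdx2 livers (log2 fold change -0.72, edgeR adjusted p = 0.0555). Cidec, a lipid droplet protein, was at 82.3, 58.5 and 59.8 CPM in sgCtrl and 24.9, 32.6 and 46.1 CPM in sgPrdx2 livers (log2 fold change -0.95, edgeR adjusted p = 0.0699). Plin2, the main coat protein of lipid droplets, which is also a PPAR-alpha target, was at 890, 709 and 725 CPM in sgCtrl and 549, 554 and 535 CPM in sgPrdx2 livers (log2 fold change -0.50, edgeR adjusted p = 0.0967). Summed endothelial markers were 184 to 212 CPM in sgCtrl and 138 to 209 CPM in sgPrdx2 livers, with 4 of 5 below 0 and 1, Pecam1, called lower, and the part of these and of the macrophage markers in the value of Cd36 was not tested. All 3 genes were lower in every sgPrdx2 liver, while Pparg itself overlapped between the groups.

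**Figure D3:**
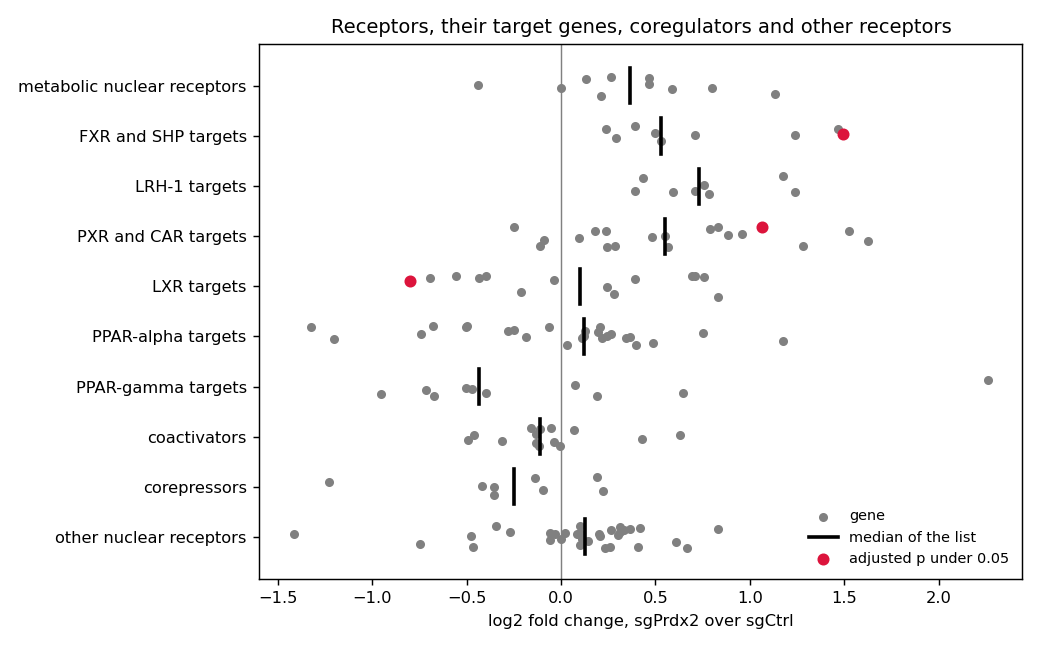
Log2 fold change, sgPrdx2 minus sgCtrl livers, of every tested gene in the target, coregulator and nuclear receptor lists, and of the 10 receptors, 1 point a gene, with a bar at each median and red points for adjusted p under 0.05. The LRH-1 (0.73), PXR and CAR (0.55) and FXR and SHP (0.53) lists have the highest medians, and the PPAR-gamma list (-0.43) the lowest.

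Rxra (chr2:27676440-27762957, plus strand) encodes RXR-alpha, the partner that FXR, LXR, PXR, CAR and the PPARs share. Its level was 266, 302 and 268 CPM in the sgCtrl livers and 397, 350 and 407 CPM in the sgPrdx2 livers. The groups did not overlap, and the spread within each was small, with a coefficient of variation of 7.37% in sgCtrl and 7.89% in sgPrdx2. The log2 fold change was 0.47 ± 0.139 SE (1.38-fold, 95% interval 0.15 to 0.79), with an edgeR adjusted p of 0.0983 and a DESeq2 adjusted p of 0.00966. With total counts alone it was 0.09, while set against the median of all genes it was 0.48 under TMM and with total counts alone. Subtracting the median takes out the scaling, so that this equality is no test of it.

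Ratios within a liver do not depend on the scaling of the library, so each receptor that pairs with RXR-alpha was also set against Rxra. The log2 ratio of Ppard to Rxra averaged -3.98 (SD 0.238) over the 3 sgCtrl livers and -4.89 (SD 0.183) over the 3 sgPrdx2 livers, a difference of -0.91. The log2 ratio of Pparg to Rxra averaged -3.25 (SD 0.0311) and -3.72 (SD 0.171), a difference of -0.47. In both, the groups did not overlap, and the two-sided exact permutation p was 0.1, the smallest that 3 livers against 3 allow (adjusted over 9 ratios, 0.45). Since Ppard was lower and Rxra higher in every sgPrdx2 liver, their ratio had to separate the groups and is no further test. Pparg had a log2 fold change of -0.00, so that its ratio largely restates the 0.47 of Rxra. The ratio of Nr1h4 to Rxra differed by 0.12 (exact permutation p = 0.3), that of Nr1h3 to Rxra by -0.01 (p = 0.8, exact permutation) and that of Nr1i3 to Rxra by 0.50 (p = 0.4, exact permutation), with overlap in each. For Nr1i2 and Ppara the differences were -0.24 and -0.37, also with overlap (exact permutation p = 0.6 and 0.5), and that of Pparg to Ppara was -0.09 (exact permutation p = 0.6). Adjusted over the 9 ratios, p was 0.675 to 0.8 for all ratios but the first pair.

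Coregulators carry the signal of these receptors to the transcription machinery. Of 14 coactivators, edgeR and DESeq2 called none (2 at an unadjusted p under 0.05), 11 were below 0, and the median log2 fold change was -0.11 under TMM, 0.06 after the length correction and -0.46 with total counts alone, where 2 were called lower. Ppargc1b, a coactivator of oxidative metabolism, had a log2 fold change of 0.63 (edgeR adjusted p = 0.154), Ncoa3 -0.32 (edgeR adjusted p = 0.165) and Ncoa6 -0.46 (edgeR adjusted p = 0.225). Of 8 corepressors, neither tool called any (2 at an unadjusted p under 0.05), and 6 were below 0, with a median of -0.25 under TMM, -0.05 after the length correction and -0.61 with total counts alone, where 8 of 8 were below 0 and 2 were called lower. Lcor had -1.23 (edgeR adjusted p = 0.196) and Ncor1 -0.42 (edgeR adjusted p = 0.240), and both were lower in every sgPrdx2 liver. The level of Lcor was low, at 1.53, 2.65 and 1.18 CPM in sgCtrl and 1.03, 0.980 and 0.215 CPM in sgPrdx2 livers. Its lowest value was in liver 3.2, where the detection limit was 0.0921 CPM.

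The remaining nuclear receptors gave the nearest background for the 10 members. Of 39, 32 were tested, edgeR called none (6 at an unadjusted p under 0.05), DESeq2 called 1 higher and 1 lower, and 22 were above 0 under TMM but 6 with total counts alone. Their median log2 fold change was 0.13, beside 0.36 for the members. Vdr, the vitamin D receptor, had the smallest p, at 1.26, 0.690 and 0.685 CPM in sgCtrl and 0.342, 0.425 and 0.184 CPM in sgPrdx2 livers (log2 fold change -1.42, edgeR adjusted p = 0.0886). Nr2f6, an orphan receptor, had 0.61 (edgeR adjusted p = 0.109), and Esr1, the estrogen receptor alpha, had 0.41 (edgeR adjusted p = 0.152).

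Levels were compared between the members only per kilobase of the longest annotated transcript. In sgCtrl livers Nr1i3 was highest, at 81.2 ± 53.4 CPM per kilobase (SD, n = 3), followed by Rxra at 56.8 ± 4.18, Nr1h3 at 46.5 ± 3.53 and Nr1h4 at 43.5 ± 3.71. Nr0b2 at 27.2 ± 18.5 and Nr1i2 at 26.0 ± 6.41 came next, and Pparg (13.8 ± 1.13), Ppara (10.3 ± 2.60), Nr5a2 (8.04 ± 0.692) and Ppard (4.74 ± 0.427) were lowest. Neighbours in this order overlapped between livers except for Rxra over Nr1h3, Nr1i2 over Pparg, Pparg over Ppara and Nr5a2 over Ppard. In sgPrdx2 livers the order was the same apart from Nr1h4 (65.3 ± 7.87) and Nr1h3 (64.1 ± 11.5), which changed places within their spread. With the median transcript length in place of the longest, the first 4 and the last 2 kept their places, and Pparg and Ppara stood above Nr0b2 and Nr1i2.

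**Figure D4:**
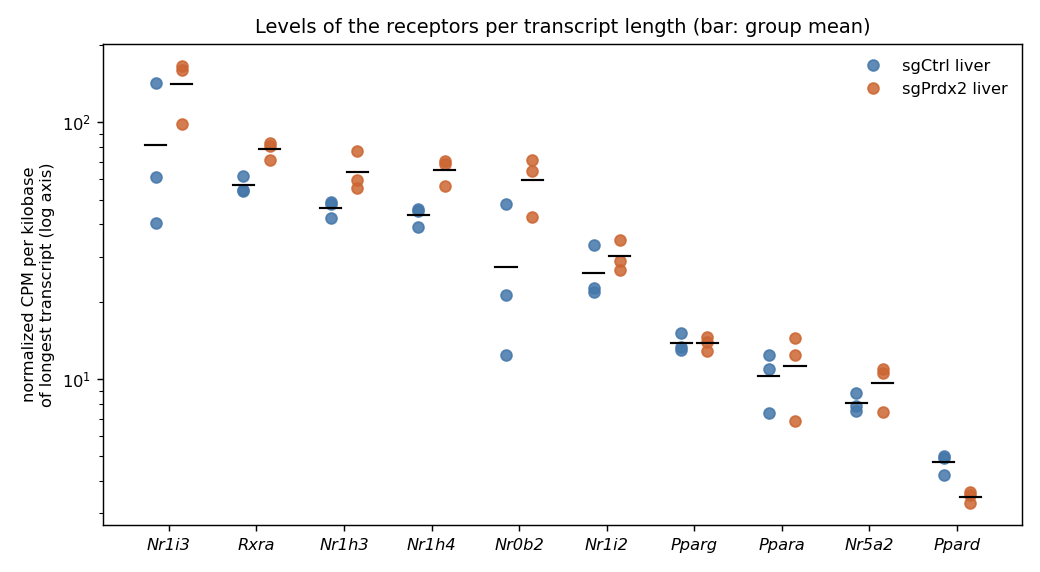
Level of each metabolic nuclear receptor in normalized CPM per kilobase of its longest transcript, on a log axis, 1 point a liver with bars at the group means, in the order of the sgCtrl means. Nr1i3 leads with the widest spread in sgCtrl (40.6 to 142), and Ppard is lowest in both groups.

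The spread between livers of a group differed between the members. The coefficient of variation in sgCtrl livers was 68.0% for Nr0b2 and 65.7% for Nr1i3, against 25% and 26.2% in sgPrdx2 livers, and it was larger in sgCtrl for 5 of 10 members. For Rxra, Nr1h4, Pparg and Ppard it was at most 12% in either group. Ppara was uneven in both groups (25.3% and 34.9%).

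Transcript length moved with the comparison. Over 16572 genes with a length (97.3% of those tested), the median log2 fold change was 0.21 in the shortest of 4 equal length classes and 0.05, -0.07 and -0.18 in the next ones. Liver 3.2 set against the other sgPrdx2 livers showed the same order, with medians of 0.32, 0.11, -0.09 and -0.31. Ppara and Nr5a2, with transcripts of 3413 and 4733 bases, were lower in liver 3.2 than in the other sgPrdx2 livers by a log2 difference of -0.95 and -0.52, and Nr1h3, with 1985 bases, was higher by 0.42. Not every member followed this order: Rxra, with the longest transcript (4905 bases), was higher in liver 3.2 by 0.13, and Pparg, with 2125 bases, was lower by a log2 difference of -0.15. After a correction of each library for transcript length, no member was called by edgeR (5 at an unadjusted p under 0.05). The corrected log2 fold changes were 0.50 for Nr1h4, 0.62 for Rxra, 0.94 for Nr0b2 and -0.36 for Ppard.

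**Figure D5:**
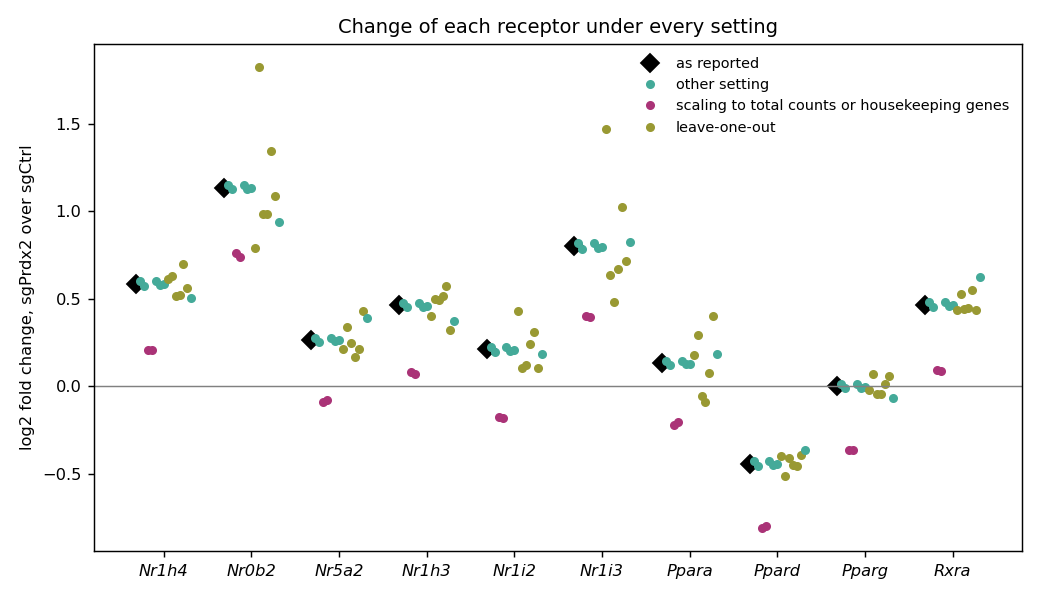
Log2 fold change of each metabolic nuclear receptor under every processing alternative, 1 point a setting; black diamonds are the values as reported, and colours mark leave-one-out, the 2 scalings named next and the other settings. Total counts alone and housekeeping scaling move all members down together, Nr0b2 (0.74 to 1.82) and Nr1i3 (0.39 to 1.47) vary most, and Ppard is below 0 under every setting run.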

How the data were processed

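RNA-Seq counts of 6 mouse livers, 3 sgCtrl and 3 sgPrdx2, grouped by the sample labels, were analysed. The authors deposited whole-number counts of reads per gene, not normalized, and their DESeq2 results (mean signal, fold changes and p-values), which were not used. The submitters' processing notes name HISAT2, HTSeq, DESeq2 and GRCm38, and versions, annotation and strand setting are not given in the sources used here. The fit used edgeR 4.0.16 in R 4.3.3: filterByExpr (minimum count 10), TMM, and the quasi-likelihood test over all 6 livers without covariates, adjusted over 17032 genes. SE was derived from the log2 fold change and its F statistic. CPM are normalized by TMM. Single values were compared by two-sided exact permutation tests. Alternatives were RLE, upper-quartile, total-count and housekeeping scaling, DESeq2 1.42.0, other filters and thresholds, leaving out each liver and, added after seeing the data, a transcript length correction. Fits were tested on simulated data. Transcripts and loci come from GENCODE M21 on GRCm38, and promoters from RefSeq.

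The members and gene lists were chosen with earlier results of these data known. All 10 members are named, as are the 3 genes with the smallest p and up to 6 called genes of each list, except for 1 gene whose result is not reported here. Marker lists are given by sums and called genes.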

Additional observations from a re-analysis of the deposited data

How the results depend on the processing

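No paired analysis was possible because the mouse numbers are not shared between the groups. By DESeq2, 4 members were called, Nr1h4 (log2 fold change 0.60), Nr0b2 (1.15), Ppard (-0.43) and Rxra (0.48). Total counts alone and housekeeping scaling each called 1, Ppard (-0.81 and -0.80), and turned the direction of Nr1i2 (-0.18 under both), Ppara (-0.22 and -0.21) and Nr5a2 (-0.091 and -0.079). Pparg, near 0, was 0.0135 with RLE size factors, 0.0139 with DESeq2, and 0.068, 0.0107 and 0.060 without sgCtrl 7.1, sgPrdx2 1.3 or sgPrdx2 3.2, but -0.37 with total counts alone and -0.36 with housekeeping scaling. These scalings gave 0.21 for Nr1h4 under both, 0.080 and 0.072 for Nr1h3, and 0.09 for Rxra under both. Set against the median of all genes, values moved little between TMM, total counts alone and housekeeping scaling. This was fixed in advance, because a change of scaling shifts nearly all genes and their median alike, and it does not show which scaling is right. Nr1h4 was then 0.60, 0.59 and 0.59, Nr1i2 0.23, 0.21 and 0.20, and Ppara 0.15, 0.17 and 0.18. Nr5a2 was 0.28, 0.29 and 0.30, and Pparg 0.017, 0.019 and 0.020. Ppara was -0.057 without sgCtrl 7.2 and -0.092 without sgPrdx2 1.1. Without 1 liver, 0 to 1 members were called, the 1 being Nr0b2 without sgCtrl 7.1. The ranges without 1 liver were 0.79 to 1.82 for Nr0b2, -0.092 to 0.40 for Ppara, -0.044 to 0.068 for Pparg, 0.52 to 0.70 for Nr1h4, 0.43 to 0.55 for Rxra, -0.52 to -0.39 for Ppard, 0.48 to 1.47 for Nr1i3, 0.10 to 0.43 for Nr1i2, 0.16 to 0.43 for Nr5a2 and 0.32 to 0.57 for Nr1h3. Over all settings, 120 values of members kept direction and side of the threshold, 13 turned direction and 7 passed it. All genes gave 3247 calls with total counts alone, 989 with housekeeping scaling, 2118 by DESeq2, 1128 without a filter and 0 at an adjusted p under 0.01. They gave 0 to 619 without 1 liver: 0 by edgeR without sgCtrl 5.1, sgCtrl 7.2, sgPrdx2 1.1 or sgPrdx2 1.3, where 3114 to 3993 genes had an unadjusted p under 0.05, 394 without sgCtrl 7.1 and 619 without sgPrdx2 3.2. The 9 lists of targets, coregulators and other receptors, with 3 called genes, gave 19, 7, 28 and 18 under total counts alone, housekeeping scaling, DESeq2 and no filter. They gave 10 with the length correction, which was added after seeing the data, 0 at an adjusted p under 0.01 and 0 to 5 without 1 liver. The cause of these shifts was not tested. The members had 399 (Ppard, sgPrdx2 3.2) to 21694 (Nr1i3, sgPrdx2 1.1) counts in a library. With 3 livers a group, the parts of counting error and of spread between livers in their intervals were not measured.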
